A study of Homo sapiens with 15 samples.

Results

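Caco-2 cells that had been given colon simulator fluids of vessels 2, 3 and 4 from a simulation with 2% polydextrose were compared with cells given the fluids of the same vessels from a simulation with 0% polydextrose. Polydextrose is a poorly digested glucose polymer used as a soluble fibre. The comparison used 6 of the series' 15 arrays, 3 per concentration, chosen by concentration and vessel alone. Caco-2 is an established line of human colon adenocarcinoma cells with epithelial traits, and it was used here before differentiation. All 6 cultures received the fluid at 10% by volume in serum-free DMEM for 24 h, after a simulation of 48 h. Vessel 2 stands for the transverse colon, vessel 3 for the descending colon and vessel 4 for the sigmoid colon and rectum. Vessel 1, the ascending colon, was left out at each concentration. The 3 arrays with 1% polydextrose fluids of vessels 2 to 4, and the single arrays of medium alone, 100 mM NaCl and 5 mM butyrate, all of the same cells for 24 h, are given beside the values where they help to read them. The labels list 1 simulation per concentration, so concentration and simulation cannot be told apart. The 3 fluids of a concentration came from connected vessels, and p-values therefore measure only the spread among these arrays.

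Gut bacteria ferment polydextrose to short-chain fatty acids, among them butyrate, which colon epithelial cells use as fuel and which inhibits histone deacetylases. In cultured colon carcinoma cells butyrate is known to slow division, to raise the cyclin-dependent kinase inhibitor CDKN1A and to alter many genes through histone acetylation. In the intestinal crypt, Wnt signals and EGF-family ligands keep stem and progenitor cells dividing. The epithelium also makes chemokines that draw neutrophils, and many of these are controlled by NF-kappa B.

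Values are on a log2 scale, and 5 was taken as the limit below which a probe set is read as background. Of 19775 genes on the array, 8644 had a value of at least 5 on at least 3 of the 6 arrays and were tested. Each array had 43.02% to 43.46% of its genes at or over the limit. Arrays of a concentration correlated at 0.991 to 0.9965 over the tested genes, and arrays of different concentrations at 0.9635 to 0.979. For the array's ACTB controls, the excess of the 3' over the 5' probe set, which grows as RNA degrades, was 0.582 to 0.636 at 0% and 0.547 to 0.551 at 2%. For the GAPDH controls it was -0.112 to -0.0951 at 0% and -0.0882 to -0.0613 at 2%. It was thus higher at 0% for ACTB and higher at 2% for GAPDH. The part of RNA quality in the results was not tested. Of 15 matched markers of colon carcinoma epithelium, 8 were over the limit on all 6 arrays and 6 were under it on all 6. Of the 8 tested, 2 (CDH17 and CEACAM6) passed as lower at 2%, where 19.0% of all tested genes did. All 11 matched leukocyte markers and all 8 endothelial markers were under the limit. Of 12 fibroblast markers 8 were under the limit on all 6 arrays, with values from 1.327 (FAP) to 2.925 (THY1). The summed level of the list on the log2 scale was 7.448 to 7.839 at 0% and 8.433 to 8.803 at 2%. Only COL1A1 was over the limit on all 6 arrays, with 6.862, 6.741 and 6.353 at 0% and 7.664, 8.261 and 7.749 at 2%. COL1A1 and COL6A3, collagen chains of that list, passed the test as higher, and the part of other cells in this was not tested. On the single arrays COL1A1 had 1.37 with medium and 8.13 with butyrate. The intestinal alkaline phosphatase ALPI, a sign of differentiated enterocytes, was under the limit on all 6 arrays.

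Across the 6 arrays 3041 genes passed the test (limma with vessel as a block, Benjamini-Hochberg adjusted p under 0.05), which is 35.2% of those tested. Of these, 1397 (16.2%) were higher and 1644 (19.0%) were lower with the 2% fluids. The counts of list members below are to be read beside these shares. All 3041 differed in the same direction in vessels 2, 3 and 4, and for 2914 of them the 3 values of 1 concentration lay wholly above those of the other. Values that do not overlap were common here, since 51.5% of all tested genes had them. The median difference of the tested genes was -0.016. Most differences were small, with a median size of 0.48 among the genes that passed. At least 2-fold differences that passed were found for 302 genes (3.49%), 113 higher (1.31%) and 189 lower (2.19%), and 294 of the 302 also passed without each of the vessels in turn. These counts use the values as deposited, also where they lie under the limit. With low sides set at the limit, 90 genes that passed were at least 2-fold higher and 159 at least 2-fold lower. Later 2-fold counts of this comparison use the values as deposited. The count of all passing genes was 1634 without vessel 2, 2284 without vessel 3 and 1860 without vessel 4. With the vessel 1 arrays added it was 1810, and 154 genes then passed at 2-fold.

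**Figure D1:**
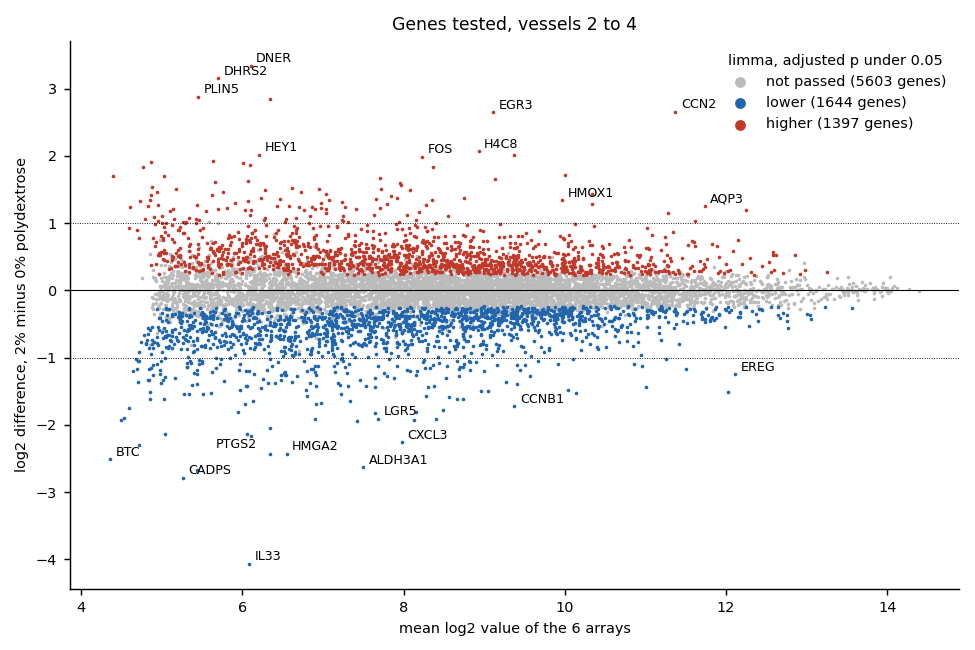
Each point is 1 of the 8644 tested genes, with the mean log2 value of the 6 arrays on the horizontal axis and the log2 difference of 2% minus 0% on the vertical axis, values under the limit of 5 included as deposited. Red marks 1397 genes that were higher, blue 1644 that were lower and grey 5603 that did not pass, and the dotted lines mark a 2-fold difference.

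The genes of cell division fell together. All 32 genes of the list of mitosis and spindle genes were tested and all 32 fell, 21 of them by at least 2-fold, where 19.0% of tested genes fell. The list's median was -1.15, or -1.11 with 2 members at their limit, against -0.016 over all tested genes. Without any 1 vessel 31 of the 32 still passed. CCNB1, the cyclin that starts mitosis with CDK1, had log2 values of 10.21, 10.26 and 10.23 for vessels 2, 3 and 4 at 0% and of 8.55, 8.32 and 8.67 at 2%. The 3 values at 2% all lay more than 1 log2 unit below the 0% values, and the difference was -1.72 ± 0.10 (SE; adjusted p = 0.00178). AURKA, a kinase of the spindle poles, had 8.98, 9.09 and 9.08 at 0% and 7.31, 6.89 and 7.54 at 2% (-1.81 ± 0.14, adjusted p = 0.00248). BORA, the cofactor with which AURKA activates PLK1, had 7.08, 7.45 and 7.56 at 0% and 5.15, 5.14 and 5.66 at 2% (-2.04 ± 0.10, adjusted p = 0.00153). For AURKA and BORA too the concentrations did not overlap, and vessel 3 held the lowest 2% value. UBE2C, an enzyme that tags mitotic cyclins for destruction, fell by 1.62, the kinesin KIF20A by 1.67, and HMMR, a spindle-associated protein, fell by 1.61 on the log2 scale. FOXM1, the transcription factor that drives many of these genes, had 5.88, 6.52 and 5.95 at 0% and lay under the limit on all 3 arrays at 2%, so it was at least 2.17-fold lower. MKI67, a marker of dividing cells, had 9.31, 9.64 and 9.77 at 0% and 8.41, 8.66 and 8.79 at 2%. Its difference was -0.96 ± 0.07 (adjusted p = 0.00219).

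Genes of the chromosomes' attachment and compaction followed. Of 25 centromere and kinetochore genes 21 were tested and 17 of these fell, with a median of -0.77 over the 21. HJURP, the chaperone that loads the centromeric histone CENPA, had 8.43, 8.50 and 8.74 at 0% and 6.75, 6.23 and 7.22 at 2% (-1.82 ± 0.15, adjusted p = 0.00271). Its lowest 0% value was more than 1 log2 unit over its highest 2% value. CDCA8, a member of the complex that corrects wrong attachments, fell by 1.25, and CENPF and NUF2, proteins of the kinetochore, fell by 1.19 and 1.12. Of 14 tested cohesin and condensin genes 12 fell, with a median of -0.49 (-0.44 with members at their limit). Among them NCAPG, a condensin subunit, fell by 0.92 and TOP2A, the topoisomerase that untangles sister chromosomes, by 0.75.

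The machinery of DNA synthesis fell in part. Of 26 tested DNA replication genes 13 fell and 13 did not pass, with a median of -0.36 and no member at 2-fold, and only 6 fell without vessel 2. MCM2, a subunit of the replicative helicase, had 9.04, 9.11 and 9.02 at 0% and 8.39, 8.42 and 8.56 at 2% (-0.60 ± 0.08, adjusted p = 0.00644). PCNA, the sliding clamp of the replication fork, had 11.42, 11.38 and 11.35 at 0% and 11.21, 11.16 and 11.35 at 2%, so its concentrations met in vessel 4. With -0.14 ± 0.08 the gene stayed short of the threshold (adjusted p = 0.212). In the list of nucleotide supply 11 of 18 tested genes fell (median -0.40), and 4 of them without vessel 2. TYMS, which makes thymidylate, was the member with the largest fall there, from 10.54, 10.66 and 10.64 to 9.62, 9.40 and 9.74 (-1.02 ± 0.10, adjusted p = 0.00336). Of 13 tested genes of homologous recombination and Fanconi repair 8 fell (median -0.39), and 4 without vessel 2, with BARD1, the partner of BRCA1, at -0.69 and PALB2 at -0.63.

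Promoter sequences were set beside these groups because the cell cycle homology region (CHR), a short element near the start of many genes of late cell cycle, is known to be read by the DREAM and MuvB complexes. RefSeq windows of 300 bases (GRCh38.p14, 250 before and 50 after a gene's start) were available for 7268 tested genes. TTTGAA or TTCGAA on either strand was present in 16.0% of these. It was present in 19 of 25 mitosis genes with a window (76.0%), in 12 of 16 kinetochore genes (75.0%) and in 2 of 23 replication genes (8.7%). An E2F element (TTTCGCG or TTTGGCG or TTTCCCG on either strand, searched apart from the CHR) was in 14 of the 23 replication windows (60.9%), in 3 of 25 mitosis windows (12.0%) and in 14.9% of all tested genes. Of 160 genes that fell by at least 2-fold and had a window, 58 (36.2%) held a CHR match, against 11 of 87 (12.6%) that rose as much and 684 of 4718 (14.5%) that did not pass. The genes that fell include mitosis and kinetochore genes already counted, so the 36.2% partly repeats them. The share without them was not computed. A match is a run of letters and no measured site. The 130 bases before the start are shown for 3 genes of the mitosis list, picked after their values were seen because their CHR lies close to the start: cyclin B2 (CCNB2, chr15:59105016-59105145, plus strand), the activator of the anaphase-promoting complex CDC20 (chr1:43358851-43358980, plus strand) and the mitotic kinase PLK1 (chr16:23678759-23678888, plus strand), with capitals for the CHR.
CCNB2: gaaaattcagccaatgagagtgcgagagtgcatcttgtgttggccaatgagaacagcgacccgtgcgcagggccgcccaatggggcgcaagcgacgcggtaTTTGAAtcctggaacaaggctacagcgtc
CDC20: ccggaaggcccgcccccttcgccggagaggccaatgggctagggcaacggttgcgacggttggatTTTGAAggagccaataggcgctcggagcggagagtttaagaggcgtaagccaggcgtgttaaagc
PLK1: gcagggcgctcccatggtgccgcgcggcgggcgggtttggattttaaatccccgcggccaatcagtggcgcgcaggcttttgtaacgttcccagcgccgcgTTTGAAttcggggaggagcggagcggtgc
CCNB2, whose promoter also holds several CCAAT boxes in the letters above, had 9.85, 9.87 and 10.16 at 0% and 8.88, 8.69 and 8.99 at 2% (-1.11 ± 0.08, adjusted p = 0.00219). CDC20 had 10.05, 10.17 and 9.87 at 0% and 8.64, 8.92 and 8.98 at 2% (-1.18 ± 0.12, adjusted p = 0.00346). For both, every 2% value lay below every 0% value. PLK1 had 5.20, 5.68 and 5.48 at 0% and lay under the limit on all 3 arrays at 2%, so only a fall of at least 1.37-fold can be given.

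Inhibitors of the cell cycle moved in both directions. Of 15 tested genes of growth arrest 7 rose and 2 fell, beside 16.2% higher and 19.0% lower among all tested genes, with a median of 0.26, and 1 fell without vessel 3 or vessel 4. CDKN1C (p57), an inhibitor of the early cyclin-dependent kinases, had 9.19, 9.18 and 9.08 at 0% and 10.72, 11.01 and 10.87 at 2%. The 6 values form a pair of tight groups 1.72 ± 0.09 apart (3.29-fold, adjusted p = 0.00153), and all 4 tested probe sets of the gene were higher. CDKN1A (p21) had 10.37, 10.35 and 10.30 at 0% and 10.80, 11.03 and 10.84 at 2%, a rise of 0.55 ± 0.08 (1.46-fold, adjusted p = 0.00756). CDKN1B (p27) went the other way, from 10.55, 10.55 and 10.72 to 9.91, 9.74 and 10.11 (-0.69 ± 0.08, adjusted p = 0.00427). GADD45B, a stress-responsive arrest gene, rose by 0.74 and PLK3, a stress-responsive kinase, by 0.80. In the list of genes for entry into DNA synthesis 8 of 18 tested members fell (5 without vessel 2 or vessel 3) and 1 rose. CCNA2, the cyclin of DNA synthesis, fell by 1.20 and the transcription factor E2F3 by 0.98. The riser was the D-type cyclin CCND2, which was under the limit on all 3 arrays at 0% and had 5.52, 5.80 and 5.34 at 2%, at least 1.47-fold higher. CCND1 overlapped between the concentrations, with 11.17, 11.20 and 10.72 at 0% and 10.85, 10.95 and 10.93 at 2%, and did not pass (-0.12 ± 0.12, adjusted p = 0.468).

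Histone genes rose while the division genes fell. Of 24 histone genes in the list 18 were matched and 11 tested, of which 8 rose and 1 fell, with a median of 0.63. H4C8, a gene of the core histone that pairs with histone H3, had 8.14, 7.37 and 8.20 at 0% and 9.97, 10.05 and 9.88 at 2%. Its 2% values lay close together and all above the 0% values, of which vessel 3 was the lowest (2.06 ± 0.20, adjusted p = 0.00343). H2BC21, an H2B gene known for polyadenylated transcripts, had 7.72, 7.57 and 7.76 at 0% and 9.16, 9.16 and 8.78 at 2% (1.35 ± 0.12, adjusted p = 0.00311). H2BC4 rose by 1.20 and H2BC5 by 0.63. The member that fell, named after its value was seen, was the variant H2AX (-0.60 ± 0.08, adjusted p = 0.00606), which marks broken DNA once phosphorylated. Histone genes of a family are near-identical in places, so their probe sets can share signal. Whether the rises lie in polyadenylated transcripts or in all transcripts of these genes was not tested.

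Immediate-early genes, which respond within minutes to growth factors and stress, were mostly higher. Of 20 tested members 11 rose and 2 fell (1 without any 1 vessel), with a median of 0.40, and 6 of the 11 rose by at least 2-fold. EGR3, a zinc-finger transcription factor, had 7.83, 7.57 and 7.96 at 0% and 10.02, 10.71 and 10.55 at 2%. The concentrations were more than 2 log2 units apart at their nearest values, and the difference was 2.65 ± 0.18 (6.26-fold, adjusted p = 0.00208). FOS, a subunit of AP-1, had 7.32, 7.05 and 7.35 at 0% and 9.05, 9.57 and 9.05 at 2% (1.98 ± 0.18, adjusted p = 0.0029). NR4A1, an orphan nuclear receptor, had 6.91, 6.83 and 6.86 at 0% and 8.38, 8.85 and 8.40 at 2% (1.67 ± 0.13, adjusted p = 0.00232). In EGR3, FOS and NR4A1 vessel 3 held both the lowest 0% and the highest 2% value. KLF2, a Kruppel-like factor, rose by 1.12. DUSP1, the phosphatase that switches off MAP kinases and belongs to the feedback list, rose by 1.44. FOSL2, another AP-1 subunit named after its value was seen, fell by 0.66 ± 0.07 (adjusted p = 0.0042).

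EGR1 is shown with its promoter because serum response factor is known to act there through CArG boxes. It had 11.11, 10.84 and 11.34 at 0% and 11.83, 12.26 and 12.28 at 2%, without overlap (1.03 ± 0.14, adjusted p = 0.00686). A CArG box was matched in 2 of 15 immediate-early genes with a window (13.3%) and in 1.55% of tested genes. The 130 bases before the EGR1 start (GRCh38.p14, chr5:138465349-138465478, plus strand) hold 2 matches, in capitals.
EGR1: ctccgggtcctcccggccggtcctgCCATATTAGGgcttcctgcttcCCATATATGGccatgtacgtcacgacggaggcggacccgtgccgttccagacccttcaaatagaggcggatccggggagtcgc
With vessel 1 included the EGR1 difference was 0.71 and no longer passed (adjusted p = 0.0527).

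The largest rise among genes over the limit on all 6 arrays was that of CCN2 (connective tissue growth factor), a secreted matrix protein and a known target of the YAP and TAZ coactivators. CCN2 had 10.50, 9.82 and 9.82 at 0% and 12.72, 12.87 and 12.50 at 2%. Every 2% value was more than 1 log2 unit above every 0% value, and the difference was 2.65 ± 0.16 (6.29-fold, adjusted p = 0.00191). Of 15 tested YAP targets 6 rose and 4 fell, with a median of -0.04, so the list did not move as a whole. CCN1, a relative of CCN2, rose by 1.19 ± 0.13, and ANKRD1, a nuclear protein under the limit on all 3 arrays at 0%, reached 5.42, 5.22 and 5.09 at 2%. YAP1 itself fell, from 10.87, 11.03 and 10.89 to 10.09, 10.07 and 10.10 (-0.84 ± 0.08, adjusted p = 0.00287). The growth factor TGFB2, also of this list, had 7.78, 7.74 and 7.74 at 0% and 6.20, 5.37 and 6.64 at 2%, tight at 0% and spread at 2% (-1.68 ± 0.24, adjusted p = 0.0071). In the matrix and integrin list COL1A1 rose from 6.86, 6.74 and 6.35 to 7.66, 8.26 and 7.75, while COL4A2, a basement membrane collagen chain, fell by 1.54 and the integrin ITGB5 by 1.05. COL1A1, TGFB2 and ANKRD1 did not pass with vessel 1 included (adjusted p = 0.0551, 0.0612 and 0.0563).

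**Figure D2:**
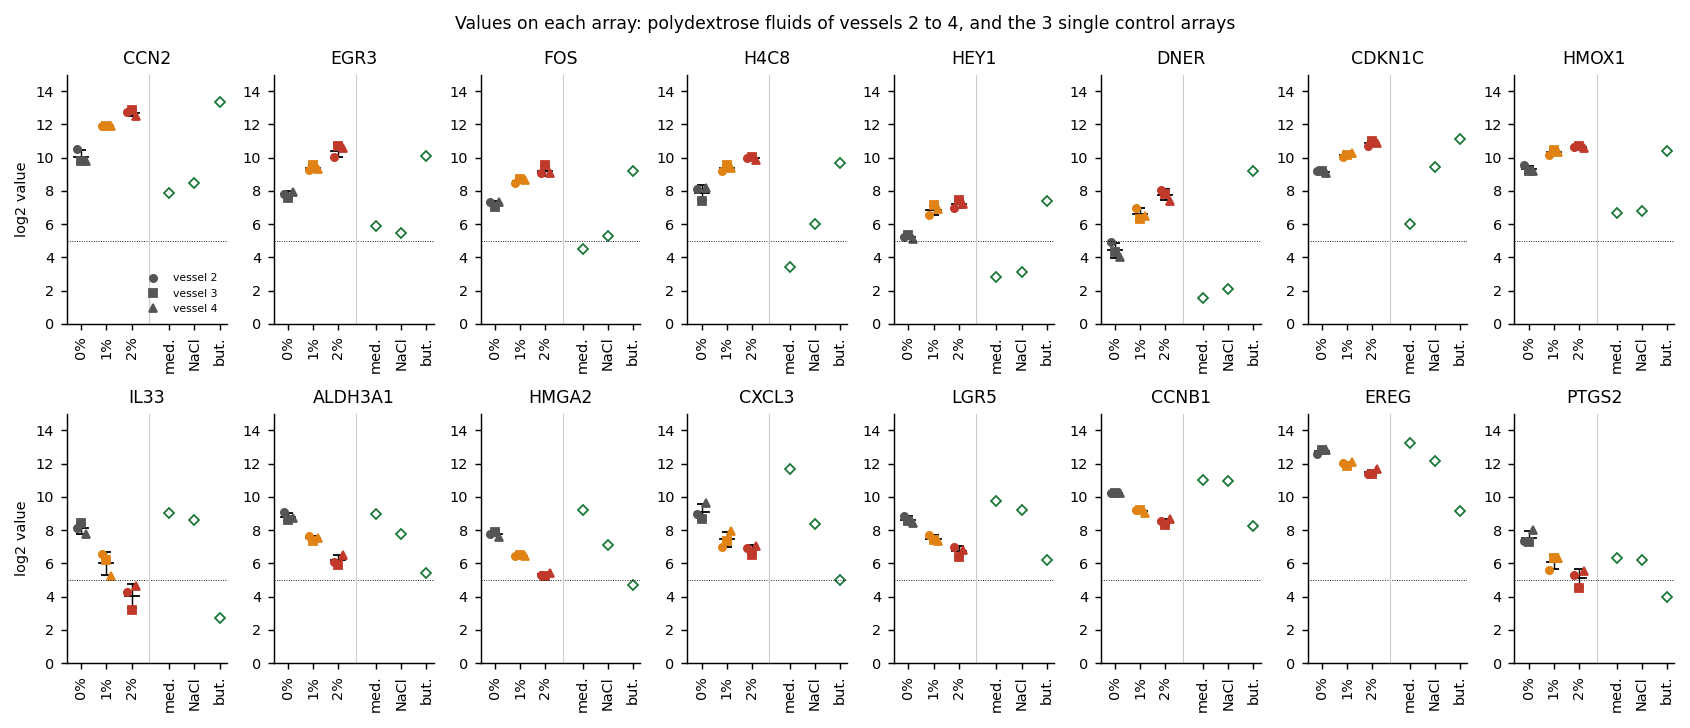
Log2 values of 16 genes on each array, with circles, squares and triangles for vessels 2, 3 and 4 at 0%, 1% and 2% polydextrose, bars for the mean and SD of 3 arrays, diamonds for the single arrays of medium (med.), NaCl and butyrate (but.), and a dotted line at the limit of 5. For all 16 genes the 2% values lay wholly above or wholly below the 0% values, and in IL33 and DNER 1 side lay under the limit.

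Other genes with large rises were of different kinds. AQP3, a channel for water and glycerol in the basolateral membrane, had 11.29, 11.25 and 10.80 at 0% and 12.35, 12.42 and 12.30 at 2% (1.25 ± 0.10, adjusted p = 0.00271). It lay at 4.88 with medium alone, at 10.52 with NaCl and at 12.72 with butyrate, so salt alone and butyrate alone each went with a high level. SPRR1A, a precursor of the cornified envelope of squamous cells, had 7.25, 6.95 and 7.28 at 0% and 8.84, 8.74 and 8.67 at 2% (1.59 ± 0.10, adjusted p = 0.00191). HMOX1, the enzyme that breaks down heme, had 9.53, 9.17 and 9.19 at 0% and 10.63, 10.71 and 10.56 at 2% (1.34 ± 0.10, adjusted p = 0.00247). HMOX1 was the single riser among 19 tested genes of the NRF2 list, of which 5 fell (3 without vessel 2). KRTAP3-1, annotated as a keratin-associated protein, ranged widely by vessel at 0%, with 9.57, 8.59 and 6.94, against 10.73, 10.46 and 9.93 at 2% (2.01 ± 0.33, adjusted p = 0.0107). Its difference was 1.17 with vessel 1 included and did not pass (adjusted p = 0.208). ARL14, a small GTPase, rose by 1.83. The signal annotated to RNA45SN5, the ribosomal RNA precursor, rose from 8.33, 8.28 and 8.33 to 9.42, 10.19 and 10.27 (1.65 ± 0.18). Whether this signal follows the amount of the precursor was not tested. With vessel 1 included RNA45SN5 was 1.05 higher and did not pass (adjusted p = 0.107).

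Genes that appeared from below the limit included known responders to histone deacetylase inhibitors. DNER, a transmembrane protein described as a Notch ligand, was under the limit on all 3 arrays at 0% (4.94, 4.33 and 4.03) and had 8.06, 7.84 and 7.42 at 2%. With the 0% side set at the limit it was at least 6.84-fold higher. DHRS2, a short-chain dehydrogenase known to be induced by butyrate, had 4.60, 3.82 and 3.95 at 0% and 7.31, 7.66 and 6.85 at 2%, at least 4.83-fold higher. PLIN5, a lipid droplet protein of oxidative tissues, reached 6.22, 7.77 and 6.67 and was at least 3.70-fold higher, with the highest value in vessel 3. DLX2, a homeobox factor, was at least 2.51-fold higher. In all, 60 genes that passed had all 0% arrays under the limit and all 2% arrays over it, and 78 had the reverse. Of 13 tested genes of the list of deacetylase inhibitor responses 7 rose and 1 fell (2 without vessel 2). That list was written with earlier results of these data known, so its direction is no independent evidence.

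HEY1, a transcriptional repressor that Notch induces, rose with DNER. It had 5.20, 5.32 and 5.08 at 0% and 6.97, 7.45 and 7.23 at 2% (2.02 ± 0.10, adjusted p = 0.00153). HES6, a relative that counters HES1, rose by 0.90. The classical target HES1 overlapped between concentrations, with 8.76, 9.07 and 8.75 at 0% and 8.83, 8.66 and 8.86 at 2% (-0.07 ± 0.12, adjusted p = 0.661). With every probe set fitted on its own, however, 1 of the 2 tested HES1 probe sets passed as lower. The ligand JAG1 fell by 0.60. Of 13 tested Notch genes 4 rose and 1 fell. Among the histone deacetylases and their partners 4 of 20 tested genes rose, a share near the 16.2% of all tested genes, among them HDAC5 by 0.64, HDAC3 by 0.38 and the deacetylase SIRT2 by 0.93, and 1 fell. Only 2 of these rose without vessel 2 or vessel 4.

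Several neutrophil-attracting chemokines fell. Of 15 chemokine genes in the list 8 were tested, of which 5 fell, each by at least 2-fold, and 1 rose, with a median of -1.13. CXCL3 had 9.0, 8.69 and 9.62 at 0% and 6.94, 6.52 and 7.08 at 2% (-2.26 ± 0.11, adjusted p = 0.00153). CXCL5 had 12.71, 12.78 and 12.85 at 0% and 11.23, 11.02 and 11.54 at 2% (-1.52 ± 0.10, adjusted p = 0.00208). For both, the concentrations were more than 1 log2 unit apart, and vessel 3 held the lowest 2% value. CXCL2 had 10.55, 10.48 and 11.31 at 0% and 9.18, 9.23 and 9.50 at 2% (-1.48 ± 0.12, adjusted p = 0.00271). CXCL1 had 9.21, 9.01 and 9.59 at 0% and 8.05, 8.03 and 8.33 at 2% (-1.13 ± 0.08, adjusted p = 0.00229). Both were highest in vessel 4 at each of the 2 concentrations. CXCL16, a membrane-bound chemokine of another receptor, fell by 1.13. CXCL8 (interleukin 8), the best-known neutrophil chemokine, overlapped fully, with 12.14, 11.97 and 12.39 at 0% and 12.00, 12.15 and 12.32 at 2% (-0.01 ± 0.09, adjusted p = 0.95). CCL20, which attracts cells with the receptor CCR6, was the riser (0.37 ± 0.08, adjusted p = 0.0259), and it did not pass without any 1 vessel. With vessel 1 included only 2 chemokines fell, and CXCL1, CXCL2 and CXCL3 did not pass (adjusted p = 0.169, 0.281 and 0.193).

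Promoters were also set beside the chemokines, since NF-kappa B is known to bind those of CXCL1, CXCL2 and CXCL3. A kappa B pattern, GGGNNTTTCC on either strand with N for any base, was found in 5 of 6 tested chemokine genes with a window (83.3%), in 3.23% of tested genes and in 1.91% of all 35116 windows. The 5 were CXCL1, CXCL2, CXCL3 and CXCL5, which fell, and CCL20, which rose. CXCL8 had no match to this pattern in its window, but other forms of a kappa B site were not searched, so a site there is not excluded. The 130 bases before the start are shown to set the genes side by side: CXCL1 (chr4:73869263-73869392, plus strand), CXCL2 (chr4:74099196-74099325, minus strand), CXCL3 (chr4:74038690-74038819, minus strand) and CXCL5 (chr4:73998678-73998807, minus strand), all GRCh38.p14. Capitals mark the match, whose letters are the same in these 4 genes.
CXCL1: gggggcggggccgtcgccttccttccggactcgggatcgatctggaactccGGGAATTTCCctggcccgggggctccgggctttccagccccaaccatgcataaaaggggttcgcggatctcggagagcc
CXCL2: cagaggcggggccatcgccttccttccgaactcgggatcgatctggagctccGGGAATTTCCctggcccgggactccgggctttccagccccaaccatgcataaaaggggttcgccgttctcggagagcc
CXCL3: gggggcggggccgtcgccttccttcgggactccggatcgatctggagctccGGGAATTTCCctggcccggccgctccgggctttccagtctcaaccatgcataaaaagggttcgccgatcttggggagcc
CXCL5: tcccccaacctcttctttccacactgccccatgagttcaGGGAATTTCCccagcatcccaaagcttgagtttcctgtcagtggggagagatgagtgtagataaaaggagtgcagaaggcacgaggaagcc
The match starts 79 bases before the start in CXCL1 and CXCL3, 78 in CXCL2 and 91 in CXCL5. The genes lie near each other on chromosome 4, and the CXCL1, CXCL2 and CXCL3 stretches are much alike, so they are no separate observations of the motif. Of 14 tested genes of the NF-kappa B pathway itself 2 fell and 12 did not pass, with a median of 0.05, and 1, 3 and 0 fell without vessels 2, 3 and 4. NFKBIA, the inhibitor that NF-kappa B induces, fell by 0.35 ± 0.09 (adjusted p = 0.0338), a call that was lost without vessel 2 (adjusted p = 0.153) and without vessel 4 (adjusted p = 0.131).

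Other genes of inflammation fell further. IL33, an alarmin held in epithelial nuclei, had the largest difference of all tested genes, also with its low side set at the limit. It had 8.13, 8.44 and 7.77 at 0% and lay under the limit at 2%, with 4.28, 3.23 and 4.65, so it was at least 8.65-fold lower. IL20RA, a receptor chain for interleukin 20-family cytokines, had 6.92, 6.70 and 6.69 at 0% and was also under the limit at 2%, at least 3.4-fold lower. LIF, an interleukin 6-family cytokine, had 6.25, 6.28 and 6.61 at 0% and 4.73, 4.80 and 5.03 at 2%, of which only vessel 4 was over the limit. PTGS2 (cyclooxygenase 2), the inducible enzyme of prostaglandin synthesis, had 7.33, 7.30 and 8.03 at 0% and 5.29, 4.53 and 5.55 at 2%. All 3 of its 2% values lay at least 1.5 log2 units below the 0% values (-2.43 ± 0.15, adjusted p = 0.00191), and with vessel 1 included the difference was -1.40 and did not pass (adjusted p = 0.167). PTGS1, the constitutive enzyme, rose by 0.63, a call that was lost without vessel 2 (adjusted p = 0.0509). Interferon-stimulated genes were divided, with 4 of 19 tested higher (2 without vessel 2 and without vessel 4) and 6 lower. Among all tested genes 16.2% were higher and 19.0% lower. IRF7, a regulator of interferon genes, rose by 0.99 and IFI6 by 0.63, while the immunoproteasome subunit PSMB8 fell from 6.91, 6.78 and 6.96 to 5.36, 4.95 and 5.28 (-1.68 ± 0.08, adjusted p = 0.00153), and OAS1, an antiviral RNA sensor, fell by 1.31.

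Genes of the stem cell state were mostly lower. Of 21 tested genes of Wnt signalling and stem cells 12 fell and 1 rose (not without vessel 2), with a median of -0.39, and 7 fell without vessel 2 and 6 with vessel 1 included. LGR5, the R-spondin receptor that marks crypt base stem cells, had 8.87, 8.58 and 8.45 at 0% and 7.02, 6.37 and 6.80 at 2% (-1.91 ± 0.12, adjusted p = 0.00201). ASCL2, a transcription factor of the same cells, had 7.47, 7.64 and 7.48 at 0% and 6.23, 5.74 and 6.17 at 2% (-1.49 ± 0.15, adjusted p = 0.00346). Neither gene overlapped between concentrations, and both were lowest in vessel 3 at 2%. MYC, the proliferative target of Wnt signalling, had 10.88, 10.73 and 10.84 at 0% and 9.92, 9.92 and 10.10 at 2% (-0.84 ± 0.08, adjusted p = 0.00323). The Wnt coreceptor LRP5 had 5.53, 5.55 and 5.35 at 0% and was under the limit at 2%, at least 1.39-fold lower. AXIN2, a direct target of beta-catenin named after its value was seen, moved little (-0.38 ± 0.09, adjusted p = 0.0274) and did not pass without vessel 2 or without vessel 3. HMGA2, an oncofetal chromatin protein, had 7.79, 7.89 and 7.62 at 0% and 5.33, 5.26 and 5.42 at 2%. Its values were tight within each concentration and 2.43 ± 0.10 apart (5.39-fold lower, adjusted p = 0.00153). IGF2BP3, an oncofetal RNA-binding protein, fell by 0.59.

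Of the EGF-family ligands 3 fell. EREG (epiregulin) had 12.57, 12.80 and 12.84 at 0% and 11.40, 11.39 and 11.67 at 2% (-1.25 ± 0.08, adjusted p = 0.00208). TGFA had 10.18, 10.29 and 10.54 at 0% and 9.56, 9.51 and 9.73 at 2% (-0.74 ± 0.07, adjusted p = 0.00374). Both remained well over the limit at 2% and did not overlap. BTC (betacellulin) had 5.67, 5.62 and 5.56 at 0% and lay under the limit at 2%, at least 1.53-fold lower. Among the receptors of the list MST1R, the receptor of macrophage-stimulating protein, fell by 0.87. Of the 13 tested ligands and receptors 6 fell and 2 rose, with a median of -0.18, and 1 rose without vessel 4.

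Secretory and ion transport genes also changed. Of 7 tested goblet cell genes 6 fell, with a median of -0.80. KLK10, a secreted serine protease, had 9.27, 9.48 and 9.32 at 0% and 7.98, 6.89 and 7.45 at 2% (-1.92 ± 0.24, adjusted p = 0.00572). The trefoil peptides TFF1 and TFF3, which protect the mucosa, fell by 0.94 and 0.80, and the membrane mucin MUC20 by 0.82. These falls exceeded the spread of the arrays, although KLK10 varied by about 1 log2 unit at 2%. SCNN1A, a subunit of the epithelial sodium channel, had 9.66, 9.88 and 9.84 at 0% and 8.15, 8.18 and 8.57 at 2% (-1.49 ± 0.10, adjusted p = 0.00208). KCNE3, the potassium channel subunit that supports chloride secretion, had 8.99, 9.06 and 9.21 at 0% and 7.10, 6.94 and 7.46 at 2% (-1.92 ± 0.09, adjusted p = 0.00153). Both lay more than 1 log2 unit apart between concentrations. CA2, a carbonic anhydrase of surface colonocytes, rose by 0.66. CADPS, a protein of regulated secretion, had 6.08, 6.96 and 6.91 at 0% and was under the limit at 2%, at least 3.14-fold lower.

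**Figure D3:**
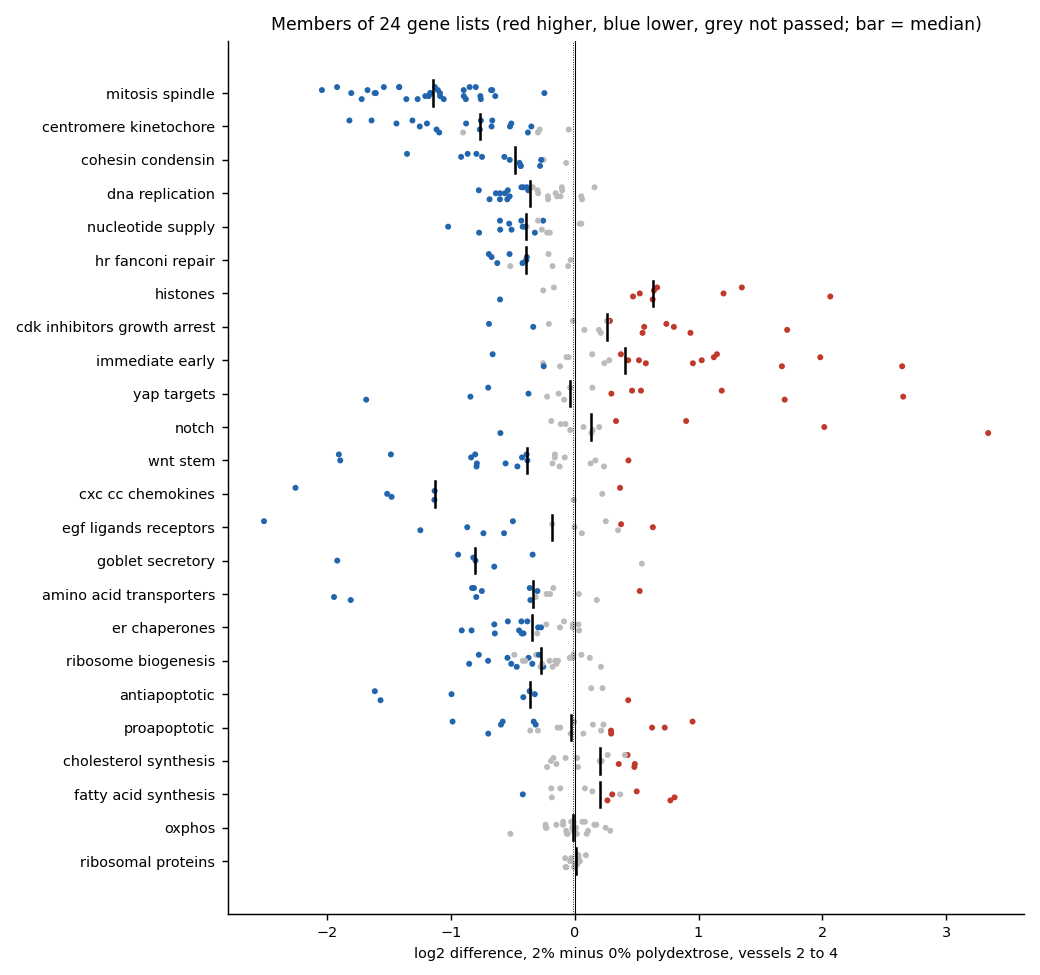
Log2 differences of 2% minus 0% for the tested members of 24 gene lists, with a point per gene, red for higher, blue for lower and grey for not passed, a black bar at the list's median and a dotted line at the median of all tested genes (-0.016). The points of mitosis and spindle genes all lie below 0, from -2.04 to -0.25, while those of ribosomal proteins lie between -0.08 and 0.09.

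Of 16 tested amino acid transporters 9 fell and 1 rose (median -0.34), the riser only without vessel 2 among the left-out vessels, and 5 fell with vessel 1 included. SLC7A7, which exports cationic amino acids across the basolateral membrane, had 8.46, 8.50 and 8.22 at 0% and 6.49, 6.09 and 6.77 at 2% (-1.95 ± 0.18, adjusted p = 0.0033). The proline transporter SLC6A20 had 6.94, 6.90 and 6.71 at 0% and 5.18, 4.94 and 5.01 at 2% (-1.81 ± 0.08, adjusted p = 0.00153). In both genes the concentrations lay more than 1 log2 unit apart, with a wider spread at 2% for SLC7A7. Of 20 tested chaperones of the endoplasmic reticulum 12 fell and none rose (median -0.34), and 9, 7 and 5 fell without vessels 2, 3 and 4. XBP1, the transcription factor of the unfolded protein response, fell by 0.91 ± 0.09. Of 27 tested genes of ribosome biogenesis 10 fell (median -0.28), and 4 without vessel 2 and 5 without vessel 3, among them MRTO4, a factor of the large subunit's assembly, by 0.85. The 14 ribosomal protein genes and the 27 tested genes of oxidative phosphorylation had none that passed, with medians of 0.01 and -0.01.

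Lipid and sugar genes moved in both directions, beside 16.2% higher and 19.0% lower among all tested genes. Of 15 tested genes of cholesterol synthesis 4 rose and none fell (median 0.20), and 2 rose without vessel 4. HMGCS1, the enzyme that makes the precursor of mevalonate, had 12.27, 12.09 and 11.80 at 0% and 12.64, 12.53 and 12.43 at 2% (0.48 ± 0.08, adjusted p = 0.0111). Of 12 tested genes of fatty acid synthesis 5 rose and 1 fell (median 0.20), and 2 rose without vessel 2 and 2 without vessel 4. FASN, the fatty acid synthase, had 9.59, 9.96 and 9.22 at 0% and 10.22, 10.60 and 10.26 at 2% (0.77 ± 0.11, adjusted p = 0.00671). In both genes the highest value at 0% stayed below the lowest at 2%. Of 22 tested genes of glycolysis and glucose uptake 2 rose and 3 fell (median -0.16), and 1 fell without vessel 3 or vessel 4. Both counts of that list are smaller shares than those of all tested genes. ARRDC4, an arrestin-domain protein, moved most, from 7.42, 8.0 and 7.51 at 0% to 9.37, 8.86 and 8.50 at 2% (1.27 ± 0.22, 2.41-fold, adjusted p = 0.0122), without overlap and with the highest 2% value in vessel 2. The transporters of glucose diverged, with SLC2A3 0.87 ± 0.09 higher and SLC2A1 0.77 ± 0.13 lower. CPT1A, which admits fatty acids to the mitochondrion and is known to respond to PPARA, overlapped, with 9.08, 8.86 and 8.93 at 0% and 8.93, 9.08 and 9.02 at 2% (0.05 ± 0.09, adjusted p = 0.689).

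The largest fall among genes over the limit on all 6 arrays was that of ALDH3A1, an aldehyde dehydrogenase and known target of the aryl hydrocarbon receptor. ALDH3A1 had 9.10, 8.63 and 8.72 at 0% and 6.09, 5.93 and 6.53 at 2%. The nearest values of the concentrations were more than 2 log2 units apart, and the difference was -2.63 ± 0.16 (6.19-fold lower, adjusted p = 0.00191). CYP1A1, the cytochrome by which that receptor is best known, had 8.90, 9.0 and 9.64 at 0% and 8.02, 8.03 and 8.36 at 2% (-1.04 ± 0.10, adjusted p = 0.00336). Of 7 tested targets of the receptor 3 fell and 4 did not pass. Of 18 tested enzymes of xenobiotic metabolism 7 fell and 1 rose (none without vessel 2 or vessel 4), among them MGST1, a microsomal glutathione transferase, by 0.98 and the sulfotransferase SULT1C2 by 1.54. ALDH1A3, which makes retinoic acid, fell by 1.20.

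Genes that hold off apoptosis mostly fell. Of 9 tested antiapoptotic genes 6 fell and 1 rose (median -0.36), and 3 fell without vessel 2. BCL2L1 (BCL-XL) had 7.69, 7.66 and 7.40 at 0% and 6.55, 5.41 and 6.07 at 2% (-1.57 ± 0.22, adjusted p = 0.00713), and all 3 of its tested probe sets were lower. CFLAR, which blocks caspase 8 at death receptors, had 8.83, 8.72 and 9.22 at 0% and 7.94, 7.64 and 8.21 at 2% (1.99-fold lower, adjusted p = 0.00232). Neither gene overlapped between concentrations. MCL1, the riser, is also in the immediate-early list (0.43), and its call was lost without vessel 3 or vessel 4. Of 21 tested proapoptotic genes 5 rose and 6 fell (median -0.03), beside 16.2% higher and 19.0% lower among all tested genes. TP53INP1, a p53-induced protein, rose by 0.95 and CASP9, the initiator caspase of the mitochondrial path, by 0.73, while the death receptors FAS and TNFRSF10A fell by 0.58 and 0.60. The difference between both lists was not tested, and 3 proapoptotic genes rose without any 1 vessel.

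The vessels differed in the size of the response. The median size of the difference among genes that passed was 0.439 in vessel 2, 0.550 in vessel 3 and 0.458 in vessel 4, and 1637 of the 3041 genes had their largest difference in vessel 3, against 612 in vessel 2 and 792 in vessel 4. RAD9A, a DNA damage checkpoint protein, was uneven over the vessels, with 5.34, 5.16 and 5.27 at 0% and 6.08, 7.94 and 6.60 at 2%. Its rise of 1.62 ± 0.38 (adjusted p = 0.0262) was lost without vessel 4 (adjusted p = 0.064). With a single array per vessel and concentration, a difference between vessels has no test. Besides the genes for which this is given elsewhere, the differences of AXIN2, CA2, CADPS, FOSL2, HMGCS1, NFKBIA, OAS1, RAD9A, SLC2A1, SULT1C2, TFF1 and XBP1 did not pass with vessel 1 included (adjusted p from 0.0539 for CA2 to 0.359 for NFKBIA).

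The 1% arrays were compared with the same 0% arrays only by their values, since the controls are shared. CCN2 had 11.90, 11.91 and 11.91 at 1%, between its 0% and 2% values in each vessel. HMGA2 had 6.45, 6.51 and 6.44, and CCNB1 had 9.20, 9.20 and 9.06, also between them. IL33 had 6.57, 6.18 and 5.26 and was thus over the limit at 1% and under it at 2%. HEY1 had 6.56, 7.15 and 6.89, nearer to its 2% than to its 0% values. BMAL1, a core factor of the circadian clock, had 7.86, 7.74 and 8.39 at 0%, 8.74, 9.31 and 9.14 at 1% and 8.96, 9.19 and 9.15 at 2%, so its 1% and 2% values overlapped, and the 2% to 0% difference was 1.11 ± 0.14 (adjusted p = 0.00567).

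The 5 mM butyrate array and the medium array share no array with the comparison, and their difference is a description without a test. Butyrate was at least 2-fold higher than medium, with values under the limit set to 5, for 14.3% of the tested genes and at least 2-fold lower for 13.8%. Of the 1397 genes that rose with 2% polydextrose, 750 (53.7%) were that much higher with butyrate and 4 lower, and these 750 were 60.6% of all tested genes higher with butyrate. Of the 1644 that fell, 865 (52.6%) were that much lower with butyrate and 11 higher, and the 865 were 72.4% of all tested genes lower with it. Among genes that moved by at least 2-fold the shares were 91 of 113 (80.5%) for the rises and 157 of 189 (83.1%) for the falls. CCN2 had 7.88 with medium and 13.33 with butyrate, and HMGA2 had 9.19 and 4.70. The CXCL3 value was 11.68 with medium and 4.98 with butyrate. With NaCl in place of medium the counts were 86 of 113 and 142 of 189.

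Some genes differed from this picture. CHAC1, which degrades glutathione and belongs to the ATF4 stress response, rose with polydextrose from 9.61, 9.45 and 9.84 to 10.18, 10.26 and 10.13 (0.55 ± 0.11, adjusted p = 0.0182), while it had 8.19 with medium and 6.34 with butyrate. SESN2, a sestrin of the same response, rose from 7.44, 7.64 and 8.31 to 8.38, 9.04 and 8.78 (0.93 ± 0.18, adjusted p = 0.0153), with 7.53 for medium and 6.49 for butyrate. Both calls were lost without vessel 2 (adjusted p = 0.0682 and 0.0507) and with vessel 1 included. Of 18 tested genes of the ATF4 list 3 rose and 2 fell, with a median of -0.02. CYP1A1, which fell with polydextrose, had 4.95 with medium, 7.51 with NaCl and 6.60 with butyrate. CXCL8 had 12.20 with medium and 10.87 with butyrate, beside no passing difference between the fluids. CPT1A had 5.97 with medium and 8.95 with butyrate, and its 6 values with the fluids lay on both sides of the butyrate value.

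**Figure D4:**
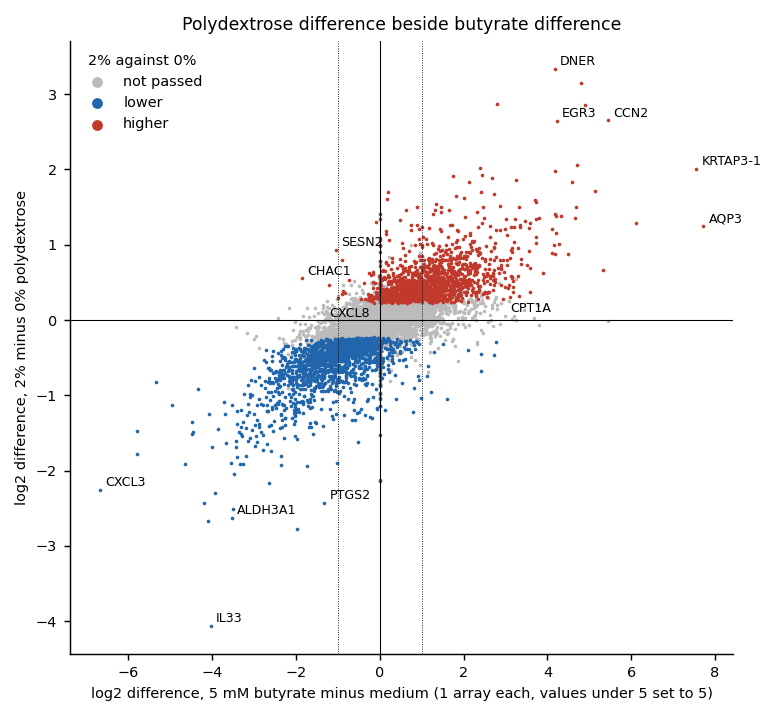
Each point is a tested gene, with the log2 difference of the single butyrate and medium arrays (values under 5 set to 5) on the horizontal axis and that of 2% minus 0% polydextrose on the vertical axis, red for higher, blue for lower and grey for not passed at 2%. Of the genes that rose at 2%, 750 lie to the right of the dotted line at a 2-fold higher butyrate value and 4 to the left of that at a 2-fold lower one, and CHAC1 and SESN2 are among the exceptions.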

How the data were processed

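Total RNA of Caco-2 cells was read on Affymetrix arrays. The authors deposited log2 values of 54675 probe sets for 15 arrays, made with GCRMA per the submitters' processing notes, with no version named. GCRMA removes background, normalizes the arrays and joins the probes of a set. That the values, from 0.173 to 14.46, are log2 was inferred from them. Image and chip settings are not given in the sources used here.

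Of the probe sets 41097 had 1 gene symbol in the platform's annotation, 1801 several and 11777 none. The named probe sets gave 19775 genes, and a gene with several was read from the probe set whose mean over all 15 arrays was highest. Genes with at least 5 on at least 3 of the 6 arrays entered a linear model (limma 3.58.1, R 4.3.3) with concentration and vessel as factors and 2 residual degrees of freedom (median residual SD 0.0971, moderated degrees of freedom 5.33). The two-sided p-values were corrected over 8644 genes (Benjamini-Hochberg). The number of arrays limits the precision. A group with all arrays under 5 was set to 5 and the difference given as a bound. In simulated data 200 of 8644 genes were changed. There 86% of changes of log2 0.5 and 100% of changes of log2 1 were recovered, and 6.06% of calls were false. That 6.06% holds for the simulated setting only. Many more genes passed in the comparison itself, and the share of false calls among them was not estimated.

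Arrays of the same vessel deviated from their concentration means with correlations of 0.219, 0.0239 and 0.327 for vessels 2, 3 and 4. For arrays of different vessels the correlations were -0.303 to 0.199. The same-vessel value was above that range for vessels 2 and 4 and within it for vessel 3, so the data do not pair all 3 vessels. The block was kept because the comparison is defined with it. Named genes are the 15 largest rises and falls over the limit on all 6 arrays, the 8 largest bounds each way, up to 4 members of each of 62 lists with the smallest p, and 18 genes in any case, some of them in more than 1 part. A few other list members are named for their role after their values were seen. Of 1325 different list genes 1220 were matched and 853 tested, of which 126 were higher and 271 lower. The members, lists and tests were chosen with earlier results of these data known. The rule gave 230 genes, of which the text describes a part, and a gene among the 18 is not reported here. Promoter windows come from RefSeq (GRCh38.p14), and the motifs searched were chosen after the values were seen. The alternatives were other filters on low signal, other choices of probe set, further normalization, an intensity trend with a robust prior, no block, other arrays in the fit, a minimum fold, and leaving out each array.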

Additional observations from a re-analysis of the deposited data

How the results depend on the processing

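Limits first. With 3 arrays from 1 simulation per concentration, the counts say how far these fluids differ and not how far another simulation would. Signals near the limit of 5 have no reliable size, which is why such genes are given with bounds. The 2-fold counts below still use the values as deposited.

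Against 3041 genes (1397 higher, 1644 lower) and 302 at 2-fold (113 higher, 189 lower), the fit of every probe set on its own passed 4600 probe sets, 2601 lower, with 469 at 2-fold, 304 of them lower, where more features were tested. With vessel 1 and all 12 fermentation arrays 1810 passed (852 higher, 958 lower) and 154 at 2-fold (61 and 93). A test against a minimum 1.5-fold change passed 137 (51 higher, 86 lower), of which 136 were at 2-fold (50 and 86), and 56 list genes in place of 397. Averaging all probe sets per gene gave 188 at 2-fold (67 and 121). For the change with vessel 1 and with the probe set mean the cause was not tested. Leaving out an array, which under the block removes its vessel from the difference, gave 1634 to 2284 genes in all, 744 to 1095 higher, 890 to 1189 lower, 248 to 344 at 2-fold and 265 to 328 list genes. The other filters, normalizations and variance priors gave 2858 to 3617 genes.

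Without the replicate block 2959 genes passed (1361 higher, 1598 lower), and 8 of the 225 named genes that passed lost the call. Of these 225, 58 lost it with vessel 1 included, 12 without a filter, 160 with the minimum fold, 38, 15 and 29 without vessels 2, 3 and 4, and 177 kept it without each array. Differences that changed sign belonged to genes that had not passed. CPT1A was at -0.033 with vessel 1 and at -0.031 to 0.152 with an array left out. CXCL8 was at 0.005 after quantile normalization, at 0.137 with vessel 1 and at -0.104 to 0.056 with an array left out. HES1 was at 0.028 with vessel 1 and at -0.166 to 0.092 with an array left out.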

Other observations

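A few genes outside the groups above moved by more than 2-fold. WDR19, a component of the transport train of cilia, had 5.62, 5.98 and 5.96 at 0% and 7.29, 7.66 and 7.15 at 2% (limma adjusted p = 0.00262). VWA5A, a protein with a von Willebrand factor domain, had 6.46, 6.23 and 5.89 at 0% and 7.72, 7.61 and 7.76 at 2% (adjusted p = 0.00282). RAB24, a small GTPase linked to autophagy, rose by 1.57 ± 0.13, with 8.47, 8.41 and 8.45 at 1% between its 0% and 2% values. C9orf152 and TMEM52B, whose roles are little known, fell by 1.91 and 1.78. PRSS33, a serine protease, had 6.08, 5.99 and 6.06 at 0% and was under the limit at 2%, at least 2.06-fold lower, while it was also under the limit with medium alone. With vessel 1 included PRSS33 did not pass (adjusted p = 0.095).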
